A study of Mus musculus with 20 samples.

Results

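Mitochondria make few of their own proteins, so nearly all mitochondrial proteins are synthesised in the cytosol and carried in through translocases of the outer membrane (TOM) and the inner membrane (TIM). Inside, a motor built on the mitochondrial Hsp70 pulls the chain into the matrix, a peptidase removes the targeting sequence, chaperones fold the protein and proteases remove damaged copies. The heart is among the tissues richest in mitochondria and depends on this machinery throughout life. Described here are the nuclear genes of that machinery in young and old mouse hearts: every gene whose symbol in the array annotation begins with Tomm or Timm, and 17 listed genes of chaperones, proteases, processing and prohibitins. The rule of membership uses names and no measured value, but the listed genes were chosen with earlier results of these data known. Probe sets that name a single gene were found for 24 Tomm and Timm genes and for 16 of the 17 listed genes, 40 of the 18193 genes so represented. Phb, Tomm5 and Tomm6 were represented only by probe sets that name several genes and were not analysed here.

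Ventricles of male mice of the inbred laboratory strain C57BL/6J had been frozen before RNA was extracted, and the labels name no genetic change or treatment in either group. Age was 4 to 6 months in the 10 young mice and 25 to 28 months in the 10 old ones, with 1 Affymetrix MOE430 2.0 array per mouse. The question posed by the series is whether mitochondrial gene expression declines with age. Values are deposited GCRMA signals on a log2 scale, and a difference is old minus young on that scale throughout, so a value below 0 is lower in old hearts.

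Array medians ran from 3.07 to 3.20, and no pair of arrays held identical values. RNA quality, read as the signal of 3′ over 5′ control probe sets for Gapdh and actin, gave a log2 difference of 0.40 ± 0.10 (SD) for the 10 old mice and 0.39 ± 0.08 for the 10 young (permutation test, p = 0.921). Probe sets brighter than 4 on the log2 scale made up 38.7% ± 0.60 (SD) of all in the old arrays and 38.1% ± 0.18 in the young (permutation test, adjusted p = 0.00014). The linear signals of the 10 listed ventricular muscle markers were added, and the log2 of that sum was 17.85 to 18.08 in old and 17.92 to 18.11 in young. The brightest genes, such as Myh6, set that sum, so it cannot show how much of the RNA was ventricular. Irx4, the dimmest of the list, had a mean of 6.10 ± 0.72 (SD) in old and 6.68 ± 0.34 in young (limma adjusted p = 0.0845). Atrial muscle transcripts stood out in the old group. The atrial myosin gene Myl7 exceeded a log2 value of 10 in 7 old arrays and was at most 2.44 in the young ones. Deviations from the age means also divided the arrays into 5 sets, each of 2 old and 2 young arrays. The labels name no batch, and the origin of the sets was not tested. Results are therefore given for all arrays and, where it matters, with these structures in the fit.

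Of the 40 genes, 38 passed the filter on low values (log2 above 4 in at least 10 of the 20 arrays), 10 were lower in old hearts and 0 were higher. The fit was limma's, with Benjamini-Hochberg adjustment over the 9275 genes tested and a threshold of 0.05. In the same fit 7.49% of all genes tested were called lower and 11.2% higher. At an unadjusted p under 0.05, 12 of the 38 were lower and 0 higher. The share of all genes at that threshold was not counted, so whether 12 exceeds it cannot be read here. None of the 10 calls held with an atrial index (of the atrial genes Myl7 and Sln) as the only covariate (0 called, smallest adjusted p = 0.121 in limma). None held without the 7 old arrays high in Myl7 (0 called, smallest adjusted p = 0.168 in limma). The calls given below are those of all 20 arrays without the index. The 38 differences had a median of −0.18, beside 0.01 over all genes tested, and 37 of them were below 0. The 10 genes were the 4 folding genes Hspd1, Hspe1, Dnaja3 and Trap1, both subunits of the processing peptidase (Pmpca and Pmpcb), the motor subunit gene Timm44, Timm29 of the carrier translocase, the protease subunit gene Clpx, and Timmdc1. Their falls were moderate, from 0.26 to 0.40 on the log2 scale, which is 16.5% to 24.2% on the linear scale. None of the 38 genes separated the groups fully, while 0.420% of all genes tested had every old array below every young one. In whole tissue, fewer cells of a type and less RNA per cell cannot be told apart.

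**Figure D1:**
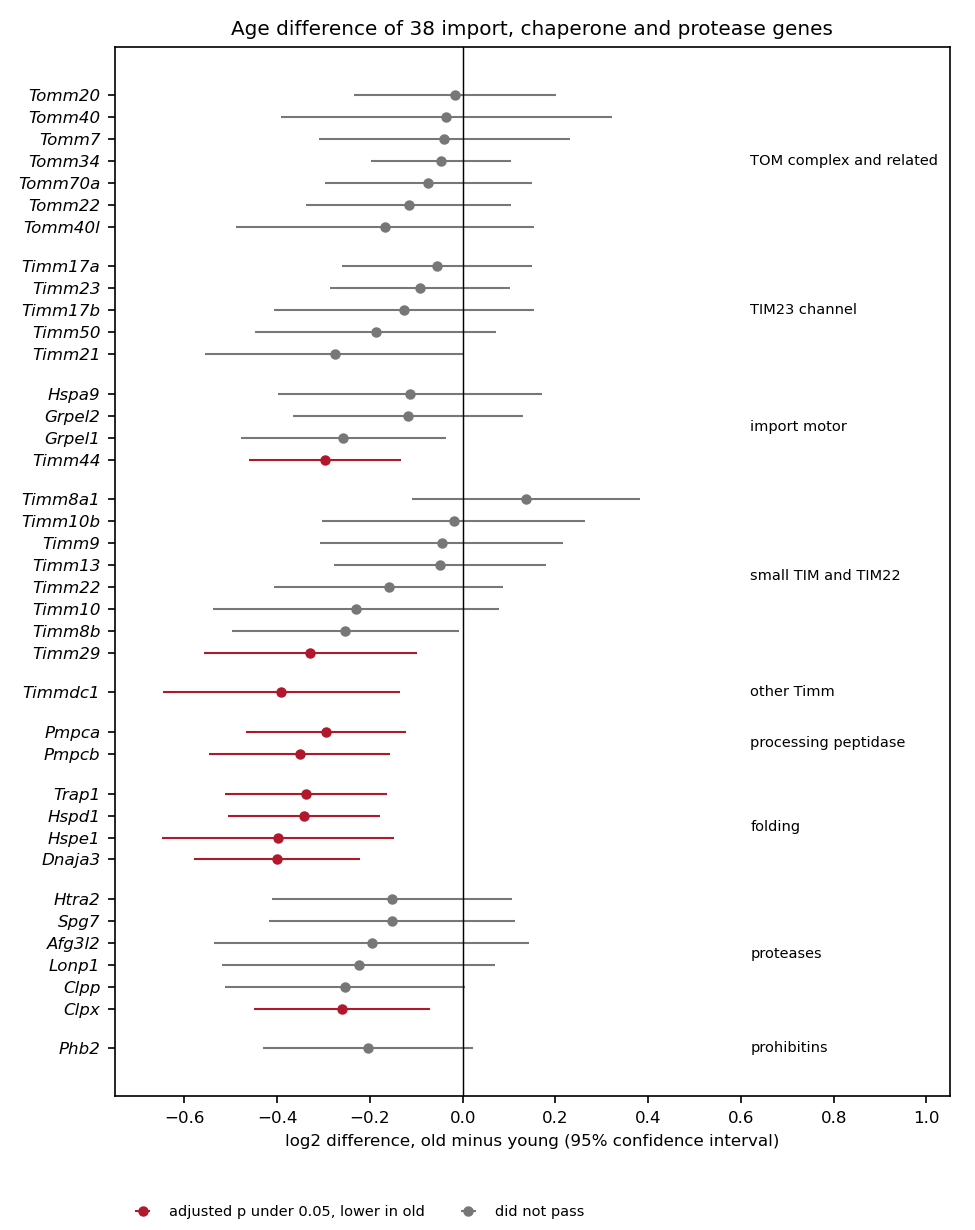
Difference in log2 value, old minus young, for the 38 tested genes, grouped by role, with limma's 95% confidence interval (n = 10 mice each). Red marks the 10 genes called lower; all 4 folding genes and both peptidase genes are red, and no Tomm gene is.

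The promoter stretches of the chaperonin pair and of Timm9 are shown here because they carry the same heat shock letters, while the chaperonin pair was called lower and Timm9 was not. Hspd1 and Hspe1 lie head to head on chromosome 1, and their start sites in RefSeq's GRCm38.p6 windows are 216 bases apart, with a second Hspd1 start 95 bases inside Hspe1. The first sequence is the stretch of 150 bases before the Hspe1 start (chr1:55087998-55088147, plus strand), between that start and the farther Hspd1 start. The second is a stretch of 150 bases before the start of Timm9, a small inner-space chaperone gene (chr12:71136776-71136925, minus strand). Capitals mark matches to the heat shock element, read as TTC, GAA and TTC with 2 bases between neighbours, on either strand, and in Hspe1 the capitals are 2 overlapping matches.
Hspe1: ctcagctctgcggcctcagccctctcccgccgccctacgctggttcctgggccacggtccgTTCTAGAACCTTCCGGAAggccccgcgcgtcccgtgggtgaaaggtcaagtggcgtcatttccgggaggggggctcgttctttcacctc
Timm9: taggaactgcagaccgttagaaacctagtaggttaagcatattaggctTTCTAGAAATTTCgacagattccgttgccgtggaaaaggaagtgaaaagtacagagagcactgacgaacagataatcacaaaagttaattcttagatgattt

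RefSeq windows of 300 bases (250 before and 50 after the start) were matched for 33 of the 40 genes, with 36 windows in all. The heat shock letters stood in 8.33% of these windows, those of Hspd1, Hspe1 and Timm9, beside 0.603% of all 32851 windows. Windows of Hspd1 and Hspe1 overlap and hold the same stretch. Of the 9 inducible heat shock genes with a window, 1 (Hsph1) held them. The letters CCGGAAGT, the core bound by GABP, a regulator of many mitochondrial genes, were in 25.0% of the member windows and 3.89% of all windows. The 9 genes were Phb2, Pmpcb, Timm10, Timm10b, Timm23, Timm29, Timm8a2, Timmdc1 and Tomm70a, of which 3 were called lower. Part of the NRF1 site, read as TGCG, CA and TGCG with no gap, was in the windows of Clpx and Timm13, 5.56% of member windows, and in 330 of all 32851 windows. The ERR letters TCAAGGTCA were in that of Timm8b (2.78% and 0.423%), and the stress letters TGATGCAAT in none (0.192% of all windows). Every motif was searched on both strands. A match is a description of the letters. The GABP letters are shown in a gene that was lower in old, Timmdc1 (chr16:38522755-38522854, minus strand), and in one that did not pass, Tomm70a (chr16:57121588-57121687, plus strand).
Timmdc1: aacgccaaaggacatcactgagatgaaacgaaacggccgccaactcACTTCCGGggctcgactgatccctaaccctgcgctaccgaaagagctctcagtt
Tomm70a: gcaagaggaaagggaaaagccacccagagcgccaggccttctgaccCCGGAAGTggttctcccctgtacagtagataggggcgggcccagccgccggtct

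In the matrix folding group all tested members fell, 4 of 4, with a median difference of −0.37. Hspd1 encodes Hsp60, the barrel in which matrix proteins fold. In old hearts Hspd1 ran from 11.82 through a median of 12.17 to 12.36, and in young hearts from 12.33 through 12.48 to 12.80. The groups met only at their edges, with 9 of 10 old arrays below the lowest young one. Hspd1 fell by 0.34 ± 0.08 on the log2 scale (SE, limma adjusted p = 0.00421). Hspe1 encodes Hsp10, the lid of the same chaperonin. It ran from 10.58 through 11.16 to 11.67 in old and from 11.23 through 11.53 to 11.97 in young. Here 6 old arrays lay below every young one, and old replicate 2, at the top of its group, lay among the young arrays. Hspe1 fell by 0.40 ± 0.12 (SE, limma adjusted p = 0.0240). A dimmer probe set of Hspe1 stood at −0.23 and did not pass (limma adjusted p = 0.107 over all probe sets tested). The name of the called probe set marks probes shared by several transcripts, and that of the dimmer one does not. The changes of the chaperonin pair, which shares the promoter region shown above, differed by 0.06 ± 0.10 (SE, permutation test, adjusted p = 0.840 over 14 pairs), which does not show that they changed alike or apart.

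Dnaja3 encodes Tid1, the J-domain partner that delivers clients to mitochondrial Hsp70, and it had the smallest p of the 38 genes. Its old arrays ran from 9.08 through 9.44 to 9.72 and its young arrays from 9.55 through 9.85 to 10.06. Of the old arrays 7 lay below every young one, and of the young arrays 8 lay above every old one. Dnaja3 fell by 0.40 ± 0.09 (SE, limma adjusted p = 0.00252). A second probe set of the gene stood at −0.43 and did not pass alone (adjusted p = 0.193 over 15304 probe sets), with SDs of 0.45 and 0.56. Trap1, the Hsp90 of mitochondria, ran from 8.41 through 8.83 to 9.03 in old and from 8.98 through 9.20 to 9.34 in young. Again 7 old arrays were below all young ones, and the lowest was old replicate 8. Trap1 fell by 0.34 ± 0.08 (SE, limma adjusted p = 0.00705), and its dimmer probe set was at −0.19 (adjusted p = 0.138).

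**Figure D2:**
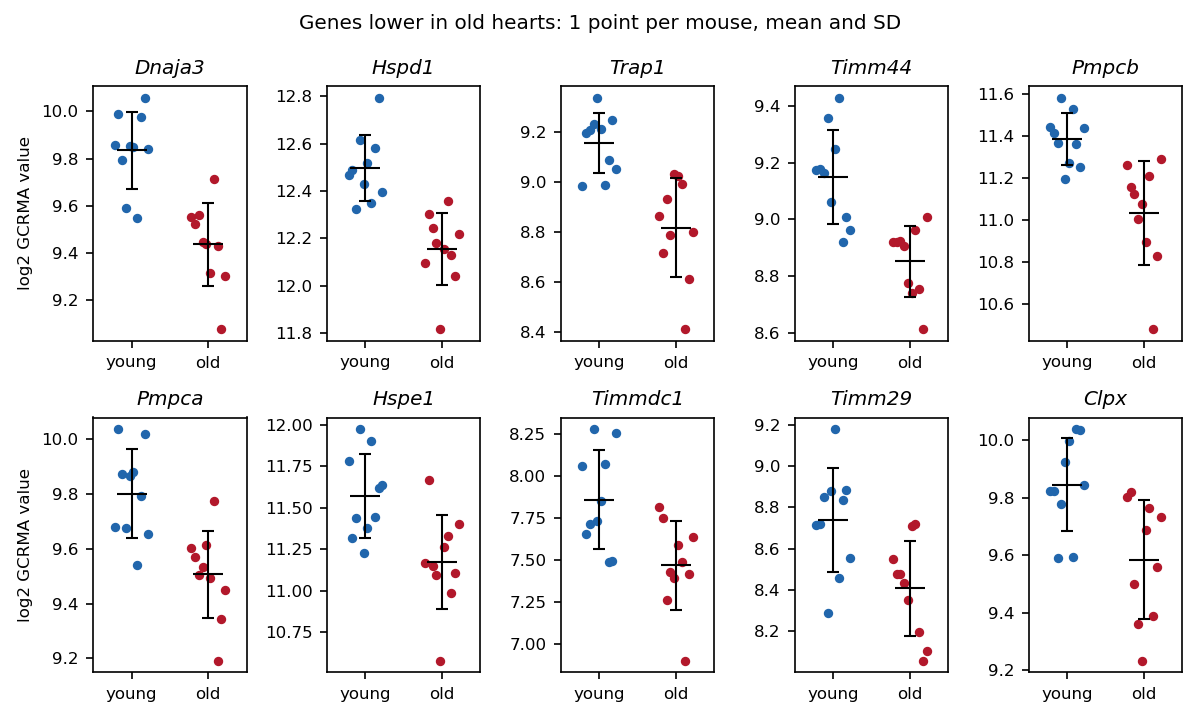
Log2 GCRMA value of the 10 genes called lower, 1 point per mouse (young blue, old red), with mean and SD (n = 10 each). The groups overlap in every panel, least for Hspd1, where 9 of 10 old arrays lie below the lowest young one.

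The matrix processing peptidase cuts the targeting sequence from incoming proteins and works as a dimer of Pmpca and Pmpcb. Both subunit genes fell, by amounts that differed by 0.06 ± 0.10 (SE, permutation test, adjusted p = 0.840 over 14 pairs). Pmpcb, the catalytic subunit gene, ran from 10.48 through 11.10 to 11.29 in old and from 11.20 through 11.39 to 11.58 in young. Of its old arrays 7 lay below every young one, and old replicate 8 was lowest. The fall of Pmpcb was 0.35 ± 0.09 (SE, limma adjusted p = 0.0114), and both its probe sets were called. The name of the dimmer one marks probes that may also bind other transcripts. Pmpca, which holds the substrate, ran from 9.19 through 9.52 to 9.77 in old and from 9.54 through 9.83 to 10.04 in young. Its old arrays lay below all young ones in 6 of 10 mice. Pmpca fell by 0.29 ± 0.08 (SE, limma adjusted p = 0.0164). A dimmer Pmpca probe set stood at −0.34 and did not pass alone (limma adjusted p = 0.212 over all probe sets tested).

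The import motor sits at the matrix face of the inner membrane. Timm44 anchors Hsp70 to the channel, and it was the called member among 4. It ran from 8.61 through 8.91 to 9.01 in old and from 8.92 through 9.17 to 9.43 in young, with 5 old arrays below all young ones. Timm44 fell by 0.30 ± 0.08 (SE, limma adjusted p = 0.0110), and all 3 of its probe sets were called, at −0.29 to −0.31. The name of the probe set that stood for Timm44 marks probes that may also bind other transcripts. The one at −0.31 has no such mark (limma adjusted p = 0.0397 over all probe sets tested). Hspa9, the mitochondrial Hsp70 itself, was at −0.11 (95% interval −0.40 to 0.17, limma adjusted p = 0.613) and did not pass, although its 4 probe sets were all below 0, from −0.51 to −0.11. Hspa9 and Hspd1 differed in their change by 0.23 ± 0.15 (SE, permutation test, adjusted p = 0.664), which does not show that they moved apart. The nucleotide exchange factor genes Grpel1 and Grpel2 were at −0.26 (limma adjusted p = 0.0956) and −0.12 (limma adjusted p = 0.535). Grpel1 is called with the array sets as a block (limma adjusted p = 0.0170).

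The outer-membrane gate gave no called gene, with 0 of 7 tested in either direction and a median of −0.05. Tomm20, the receptor for targeting sequences, had a mean of 12.86 ± 0.22 (SD) over the 10 old arrays and of 12.88 ± 0.23 over the 10 young, which is a difference of −0.02 with a 95% interval of −0.24 to 0.20. Its 6 probe sets lay between −0.02 and 0.11. Tomm40, the channel, was at −0.03 (95% interval −0.39 to 0.32), and Tomm7, a small subunit, at −0.04. Tomm70a, the receptor for carrier proteins, was at −0.07 and the paralogue Tomm40l at −0.17. Tomm34, a cytosolic cochaperone of precursors, was at −0.05, with the narrowest interval of the group (−0.20 to 0.10). Tomm22, the central receptor, was at −0.12, but a second probe set, whose name marks probes that may also bind other transcripts, was called at −0.40 (adjusted p = 0.0291 over 15304 probe sets). The 95% interval of Tomm40l reaches −0.49, beyond the falls of all 4 folding genes, and that of Tomm40 reaches −0.39, beyond those of Hspd1 and Trap1. That the outer gate and the matrix side differ as groups was not tested. Tomm20l was not above a log2 value of 4 in any array (means of 2.21 in old and 2.27 in young) and was not tested.

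The channel of the inner membrane for targeting sequences also gave 0 of 5 called, with a median of −0.13. Timm23, the channel protein gene, was at −0.09 and its paralogous partners Timm17a and Timm17b at −0.06 and −0.13. Timm50, the receptor of the channel, was at −0.19. Timm21, which links the channel to the respiratory chain, was at −0.28 (95% interval −0.56 to 0.003, limma adjusted p = 0.162). Timm50 and Timm21 thus leaned the way of the called genes without passing. Timm21 had all 5 array sets below 0, and it was called with the sets as a block (limma adjusted p = 0.0141).

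The small TIM chaperones carry membrane proteins across the space between the membranes, and TIM22 inserts carrier proteins. Of 8 tested genes 1 was called, Timm29, a TIM22 subunit gene. It ran from 8.06 through 8.46 to 8.72 in old and from 8.29 through 8.78 to 9.18 in young, with 3 old arrays below all young ones. Timm29 fell by 0.33 ± 0.11 (SE, limma adjusted p = 0.0411). Leaving out 1 array ended that call in 12 of 20 fits (without any of old replicates 4, 5, 8, 9 and 10 or young replicates 11, 12, 13, 15, 16, 18 and 19), with adjusted p up to 0.0779. A dimmer Timm29 probe set stood at −0.24 and did not pass (limma adjusted p = 0.518 over all probe sets tested). The other members were Timm8b (−0.25), Timm10 (−0.23), Timm22 (−0.16), Timm13 (−0.05), Timm9 (−0.05), Timm10b (−0.02) and Timm8a1, and none of them passed. Timm9, whose promoter holds the heat shock letters, was thus at −0.05 (95% interval −0.31 to 0.22), while the chaperonin genes with the same letters fell. Timm8a2 was below 4 in all arrays (means of 3.12 in old and 3.31 in young) and was not tested.

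Timm8a1 was the single tested gene with an estimate above 0, at 0.14 (95% interval −0.11 to 0.38, limma adjusted p = 0.456). It encodes a small TIM whose human counterpart is mutated in a deafness-dystonia syndrome. Timm8a1 ran from 7.77 through 8.15 to 8.50 in old and from 7.70 through 7.85 to 8.50 in young, so the ranges overlapped almost fully. Its partner of the same family, Timm8b, ran from 9.61 through 10.25 to 10.55 in old and from 10.09 through 10.40 to 10.94 in young. The change of Timm8a1 exceeded that of Timm8b by 0.39 ± 0.12 (SE, permutation test, p = 0.0055, adjusted p = 0.0770 over 14 pairs), which did not pass. It passed with the array sets as a block (permutation within sets, adjusted p = 0.0072), a p-value that is too small because the same values defined the sets. With the atrial index it passed at 0.61 (permutation test, adjusted p = 0.00434). Without the 7 old arrays high in Myl7 it passed at 0.69 (exact permutation test, adjusted p = 0.0490). A dimmer second probe set of Timm8a1 stood at −0.05, so the gene's probe sets disagree in sign. Of the 14 pairs, 0 passed with all arrays and 1, this one, had an unadjusted p under 0.05.

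Timmdc1 bears a Timm-like name but encodes an assembly factor of respiratory complex I. It ran from 6.90 through 7.46 to 7.82 in old and from 7.49 through 7.79 to 8.28 in young. The lowest old array was replicate 8, and 5 old arrays lay below all young ones. Timmdc1 fell by 0.39 ± 0.12 (SE, limma adjusted p = 0.0300). That call ended without old replicate 8 or young replicate 11, 14, 17 or 20, with adjusted p up to 0.0568.

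Proteases of the mitochondrion gave 1 called gene of 6, and all 6 estimates were below 0 with a median of −0.21. Clpx, the unfolding subunit of the matrix ClpXP protease, ran from 9.23 through 9.62 to 9.82 in old and from 9.59 through 9.84 to 10.04 in young. Of the old arrays 5 lay below all young ones, and the rest overlapped with them. Clpx fell by 0.26 ± 0.09 (SE, limma adjusted p = 0.0496), which is at the threshold. The call held in 6 of 20 fits that left out 1 array: those without old replicate 1, 2, 7 or 10 or young replicate 13 or 17. Its adjusted p otherwise reached 0.0941. A dimmer Clpx probe set fell further, by 0.71 (adjusted p = 0.00502 over 15304 probe sets). Its proteolytic partner Clpp was at −0.25 (limma adjusted p = 0.165), and the pair's changes differed by 0.01 ± 0.17 (SE, permutation test, adjusted p = 0.970). Lonp1, the other soluble matrix protease, was at −0.22. The membrane proteases Afg3l2 and Spg7, which form a joint complex, were at −0.20 and −0.15, and Htra2 of the intermembrane space at −0.15. These 4 did not pass. Clpp and Lonp1 did with the array sets as a block (limma adjusted p = 0.0256 and 0.0248).

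Phb2 encodes a prohibitin, a ring-forming inner-membrane scaffold that holds membrane proteases. Its mean was 11.13 ± 0.27 (SD) over the 10 old arrays and 11.33 ± 0.21 over the 10 young, which is a difference of −0.20 (limma adjusted p = 0.206). Of its 4 probe sets, all below 0, 1 was called at −0.42 (adjusted p = 0.0185 over 15304 probe sets), and its name marks probes that may bind other transcripts. With the mean of a gene's probe sets, Phb2 was called.

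Probe sets of the same gene mostly pointed one way. Of 22 tested genes with several passing probe sets, 19 had all of them below 0. Over 74 passing probe sets, 15 were called lower and 0 higher, beside 5.91% and 8.89% of all probe sets tested.

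The called genes differed in how evenly their falls were spread over the array sets, which divide the same arrays that gave the calls. All 10 had an old mean below the young mean in all 5 sets of 2 old and 2 young arrays, in some by little. Among the other 28 tested genes, 8 did. Dnaja3 lay between −0.31 and −0.48 in the sets and Trap1 between −0.23 and −0.47. Clpx ran from −0.50 to −0.02, with 2 sets near 0, and Pmpca from −0.44 to −0.08. Tomm20 lay between −0.11 and 0.17, and Timm8a1 between −0.32 and 0.32 with 1 set below 0. With the sets as a block, 16 of the 38 genes were called lower and 0 higher, beside 16.7% and 19.4% of all genes. The 6 added genes were Grpel1, Timm8b, Timm21, Clpp, Lonp1 and Phb2. Because the same values defined the sets and were then tested, p-values of that fit are too small.

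**Figure D3:**
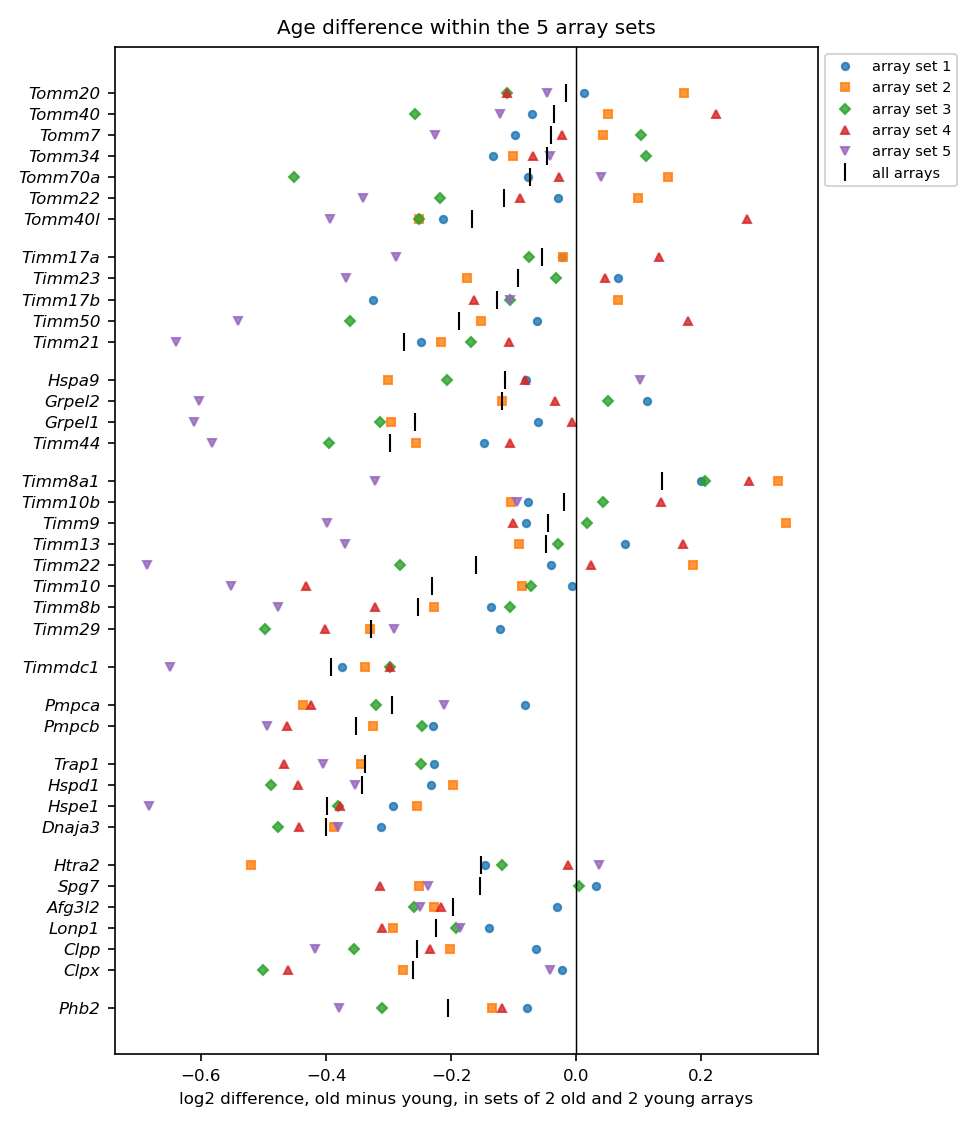
Old minus young difference in log2 value within each of 5 array sets (2 old and 2 young arrays each) and over all arrays (bar), for the 38 tested genes in the same order by role. The called genes lie left of 0 in all sets, while the Tomm genes lie on both sides.

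Single animals weighed on both groups. Old replicate 8 had the lowest value of its group for 16 of the 38 genes and the highest for 0. The mean log2 value of the 38 genes was 8.88 in that array and 9.08 to 9.32 in the other old arrays. In the young group the same mean ran from 9.22 to 9.54, with replicate 18 lowest. Young replicate 18 had the lowest value of its group for 11 of the 38 genes, and young replicate 17 the highest for 11. Old replicate 8 and young replicate 18 are both in array set 4, and a link of these low values to the set was not tested. Without old replicate 8, 7 genes were called lower (Clpx, Timm29 and Timmdc1 were lost) and the median of the 38 was −0.14. Leaving out young replicate 11 lost the same 3 genes, with a median of −0.22. Hspd1, Hspe1, Dnaja3, Trap1, Pmpca, Pmpcb and Timm44 were called in all 20 fits that left out 1 array.

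Scaling, filter and probe set rule moved the count of called genes and its background. Quantile normalization gave 10 genes lower beside 11.4% of all genes, with a median of −0.24 for the 38 and −0.06 for all. Centring each array on its median gave 7 beside 5.66% (medians −0.14 and 0.04), and centring on the median of the genes tested gave 11 beside 12.2% (medians −0.24 and −0.06). Without a filter 11 of 40 genes were called beside 16.7%, and with a filter at 6 it was 10 of 37 beside 8.85%. With the mean of a gene's probe sets it was 9 of 38 beside 7.17%. That mean kept 8 of the 10 calls: Pmpca and Timm29 were lost and Phb2 was added.

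Atrial transcripts moved with the age groups, and none of the 10 calls held with an index of them as the only covariate. The log2 of the summed linear signal of the 8 atrial markers was 10.74 to 16.60 in old and 10.05 to 12.40 in young. All 4 tested atrial markers rose. With an index of Myl7 and Sln as a covariate, 0 of the 38 genes were called in limma, beside 0.927% of all genes called lower. At an unadjusted p under 0.05, 6 were lower and 1 higher, with no share of all genes counted beside them. The median of the 38 differences was −0.17 in that fit, against −0.18 without the index. Hspd1 was at −0.30 (limma adjusted p = 0.121), Trap1 at −0.29 (limma adjusted p = 0.160) and Dnaja3 at −0.24 (limma adjusted p = 0.213). Without the 7 old arrays high in Myl7, which leaves 3 old mice, 0 genes were called, beside 0.679% of all genes called lower. At an unadjusted p under 0.05, 2 were lower and 1 higher in that fit, again with no such share counted. The median was −0.17, with Trap1 at −0.30 (limma adjusted p = 0.168) and Clpx at −0.05. With index and sets together, the median shrank to −0.05 and 1 gene was called, Dnaja3, at −0.32 (limma adjusted p = 0.0181), beside 1.89% of all genes called lower. Myl7 and Sln were both above 4 in 9 old arrays and 0 young ones.

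**Figure D4:**
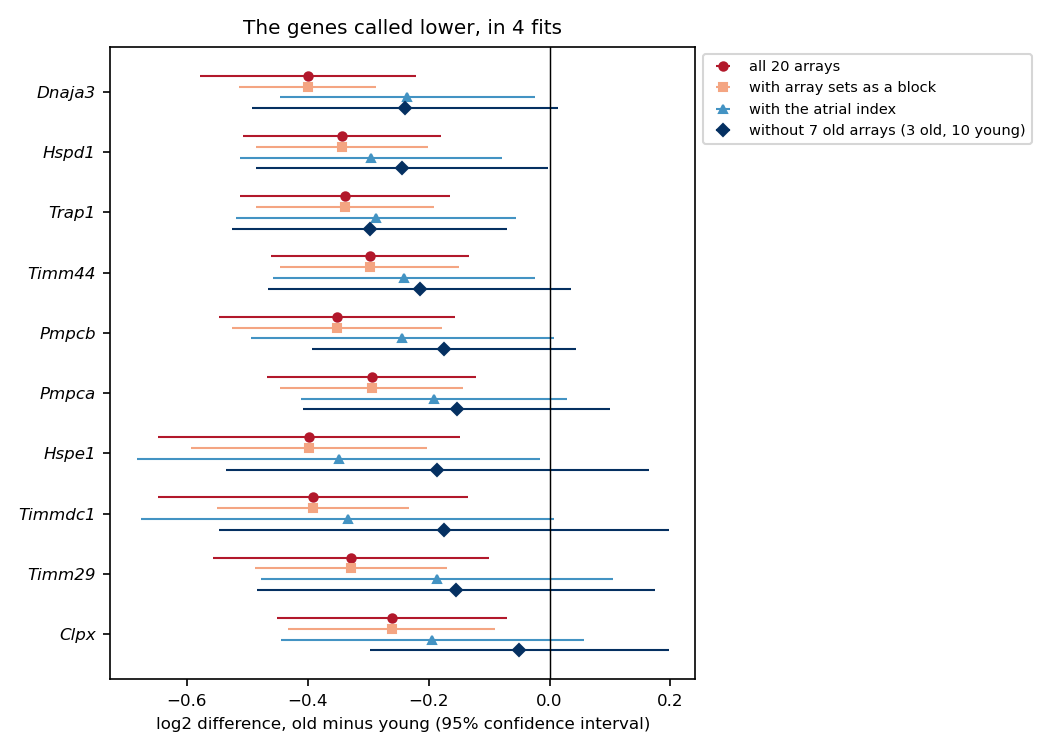
Old minus young difference with limma's 95% confidence interval for the 10 called genes in 4 fits. Estimates stay below 0 in all 4, and the intervals widen with the atrial index and with the 3 old mice left.

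Markers of other cell types also differed between the groups, to be set against the 11.2% of all genes tested that were called higher. Macrophage markers rose in 9 of 10 tested, platelet markers in 3 of 3 and fibroblast markers in 3 of 7. The log2 of the summed linear signal of the macrophage markers was 12.19 to 13.19 in old and 11.50 to 12.09 in young. Of the endothelial list 1 of 6 rose, of the smooth muscle list 1 of 5, and of the ventricular list 1 of 10, the slow myosin gene Myh7. The single tested adipocyte and red cell markers rose (Car3 and Alas2), and the single tested lymphocyte and skeletal muscle markers did not pass. For adipocyte markers the log2 of the summed linear signal was 6.00 to 14.81 in old and 4.86 to 7.19 in young. Cd79a, Cd3e, Hba-a1, Lep and the fast skeletal genes Myh4, Myh1, Tnnt3 and Tnnc2 were below 4 in all arrays. Of the lymphocyte list, Cd3d, Cd8a and Cd79b reached 8.38, 7.94 and 5.95 in old arrays, beside 2.36, 4.54 and 3.49 in young. Cd3d was above 4 in 1 old array and Cd79b in 2. The part of these cells in the falls described here was not tested.

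Other genes of the same pathway were read from lists, to be set against the 7.49% of all genes called lower. Of 14 other import genes 2 were lower and 0 higher, with a median of −0.23. Mipep, the peptidase that trims some proteins after the processing peptidase, ran from 7.96 to 8.72 in old and from 8.64 to 9.13 in young. It fell by 0.46 ± 0.09 (SE, limma adjusted p = 0.00143), and 8 old arrays lay below the lowest young one. Dnlz, a partner that keeps mitochondrial Hsp70 soluble, fell by 0.46 (limma adjusted p = 0.0238). Of 11 other chaperone and protease genes 3 were lower and 0 higher, with a median of −0.24: Oma1, a stress-activated inner-membrane protease (−0.43), Stoml2, a prohibitin-binding scaffold (−0.34), and Lactb (−0.32). For scale, 23 of 76 mitochondrial ribosome genes were lower (median −0.26) and 9 of 34 complex I subunit genes (median −0.19), with 0 higher in both.

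Inducible heat shock chaperones of the cytosol were read in the same way. Of 12 inducible heat shock genes 7 were lower and 0 higher, with a median of −0.49. Hspa1b, an inducible Hsp70, ran from 6.60 to 7.92 in old and from 6.75 to 13.40 in young, so the young animals were far apart among themselves. It fell by 3.25 (limma adjusted p = 0.00143), and its neighbour Hspa1a fell by 3.17 (limma adjusted p = 0.00136). Dnaja1, a cochaperone that also guides mitochondrial precursors, fell by 1.19 (limma adjusted p = 0.000702), and Dnajb1 fell by 1.34 (limma adjusted p = 0.00113). Of 12 tested genes of cytosolic chaperones and targeting of precursors, Dnaja1 was the called one, and the median was −0.04. Among 10 tested regulators and reporters of mitochondrial stress, 2 were higher and 0 lower, beside 11.2% and 7.49% of all genes tested. Atf5, a transcription factor linked to the mitochondrial unfolded protein response, ran from 6.20 to 7.69 in old and from 6.15 to 7.05 in young. It rose by 0.61 ± 0.19 (SE, limma adjusted p = 0.0262). Asns, an amino acid synthesis gene of the integrated stress response, rose by 1.24 (limma adjusted p = 0.00132). Atf4 (0.01) and Ddit3 (0.18), further factors of these responses, did not pass. Cebpb (−0.53, limma adjusted p = 0.114) and Ppargc1a (−0.37, limma adjusted p = 0.155) of the same list did not pass either. The list had a median of −0.03, and 6 of its 10 tested genes were below 0. In the same hearts the chaperonin genes Hspd1 and Hspe1, textbook targets of the mitochondrial response, were lower.

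**Figure D5:**
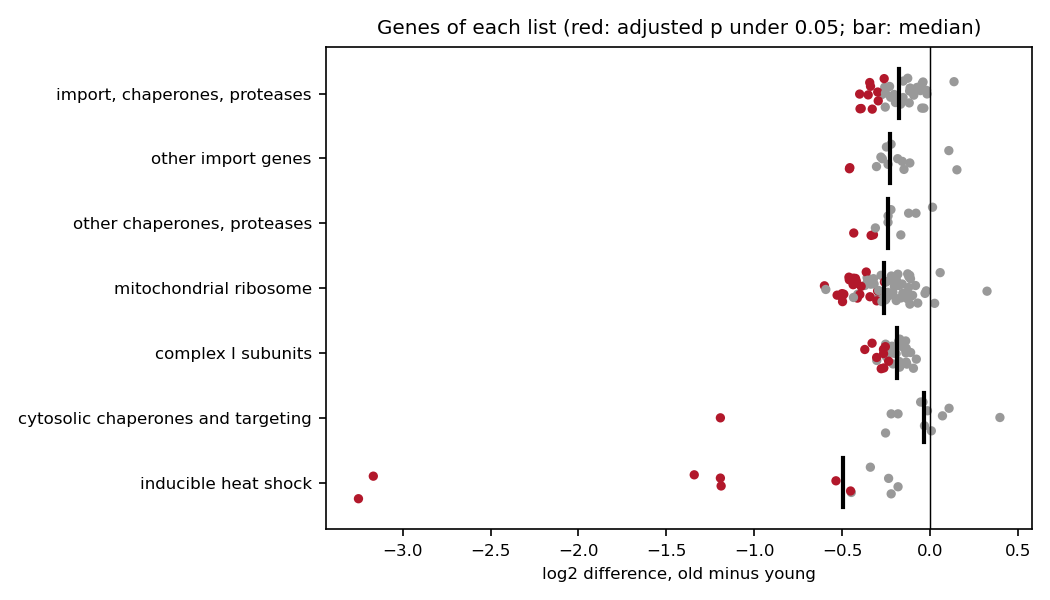
Old minus young difference in log2 value of each tested gene in 7 lists, with the median as a bar and called genes in red. The mitochondrial lists centre between −0.18 and −0.26, and the inducible heat shock genes reach −3.25. Dnaja1, Hspa8 and Hsp90aa1 stand in both cytosolic lists.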

How the data were processed

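The authors deposited 1 table of 45101 probe sets in 20 arrays; per the submitters' processing notes its log2 values are GCRMA output, in which probe background is modelled from base content, arrays are normalized together and probes are combined. The version is not given in the sources used here, and that the scale is log2 was inferred from the range (0.976 to 16.0). Depth has no meaning for arrays, whose number limits the precision.

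Probe sets were named by the supplied platform annotation and, by gene identifier, the GRCm38.p6 gene table. Of them, 34945 named 1 gene, 932 several and 9160 were unnamed here. Where several probe sets of a gene passed, the one of highest mean stood for it. Old and young were compared with limma 3.58.1 in R 4.3.3, tested on simulated data. Pairs of genes were compared by permuting age labels (100000 resamples, two-sided). Alternatives were quantile normalization, 2 centrings, other filters, other probe set rules, leaving out arrays, the atrial index (mean of Myl7 and Sln, linear, relative to the highest array), leaving out old arrays with Myl7 above 10, and the array sets as a block. Sets came from average linkage clustering of residual correlations. Each array is 1 mouse.

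All genes of the module are named; of other lists, up to 4 called genes of smallest p. Members, lists, pairs and tests were chosen with earlier results of these data known. Motifs, the second centring and the relation of Hspa1b to the chaperonin genes were added after values were seen.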

Additional observations from a re-analysis of the deposited data

Results flagged for a closer look

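In 5 of 76 groups of 10 arrays examined (38 genes in 2 age groups), 1 array stood far below the other 9. Chance gives about 1 in 20 groups. Old replicate 8 held 3 of the 5: Grpel1 at 9.85 (next 10.14), Timm10 at 9.90 (next 10.57) and Timm8b at 9.61 (next 10.15). Tomm70a was at 8.66 in old replicate 6 (next 9.15), and Spg7 at 5.12 in young replicate 11 (next 5.69).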

How the results depend on the processing

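The count of 10 genes called lower became 16 with the array sets as a block, 0 with the atrial index, 0 without the 7 old arrays with Myl7 above 10, and 1 with index and sets together. It was 10 after quantile normalization, 7 after centring on the array median, 11 after centring on the median of the genes tested (added after seeing the data), 11 without a filter (Timm8a2, under 4 in all arrays, was added), 10 with a filter at 6, 9 with the mean of probe sets and 12 with every probe set. Leaving out 1 array gave 7 to 10. No gene was called higher in any of these fits. The cause of the changes was not tested. Of 14 gene pairs, 0 passed, and 1 did with the set block, 2 with the index, 2 with index and sets, and 1 without the 7 arrays, the second pair being Timm17a and Timm17b (0.36 with the index, adjusted p = 0.0251). Leaving out 1 array gave 0 to 1. The share of rises among all called genes was 59.9%, and 43.3% after quantile normalization, 68.6% after centring on the array median and 41.9% on that of the genes tested. No paired analysis was possible because old and young arrays have no replicate number in common. Signal over background limits what can be read from Tomm20l and Timm8a2.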

Other observations

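The heat shock letters in the chaperonin promoter led to a look at Hspa1b beside Hspd1 and Hspe1 across animals, chosen after the values were seen. In the 10 young hearts, where Hspa1b ran from 6.75 to 13.40, Pearson's r with Hspd1 was 0.58 (permutation p = 0.0783, adjusted p = 0.313 over 4 relations) and Spearman's rho 0.68 (permutation p = 0.0349, adjusted p = 0.139). Without the 2 arrays farthest from the median of Hspa1b, r was 0.48. For deviations from the means of the array sets it was 0.80, with the same order in 4 of 5 sets. Each set holds 2 young arrays and was defined from these same values, so that r rests on 5 pairs of arrays and has no p-value. Hspe1 gave r of 0.04 and rho of −0.01 in the same hearts (permutation p = 0.907 and 1). In the 10 old hearts, where Hspa1b ran from 6.60 to 7.92, r was −0.28 with Hspd1 and −0.37 with Hspe1 (permutation p = 0.420 and 0.276), and rho −0.39 and −0.26 (permutation p = 0.264 and 0.470). For deviations from the set means, r was 0.28 with Hspe1 in young hearts. In old hearts it was −0.34 with Hspd1 and −0.29 with Hspe1. The order was the same in 3 of 5 sets for each of them. None of the 4 relations passed adjustment.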
